A study of Rattus norvegicus with 26 samples.

Results

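The arrays of the rat multipotent adult progenitor cell (rMAPC) clone Cl19 on day 6 (d6) of differentiation were compared with those on day 0 (d0). Members were chosen by their labels for clone and day, 3 arrays on each day, which are 6 of the 26 arrays of the study. The study followed the rMAPC clones Cl19 and 3c3 over 6 days of differentiation towards smooth muscle cells (SMCs), with RNA of primary rat aortic SMCs on 2 arrays. Cl19 is a clone of bone marrow cells of 3-week-old female Fischer rats that expresses Oct4, so all 6 arrays trace back to 1 clone. Cells on d0 were undifferentiated. Cells on d6 had been kept in basal medium without serum, to which TGFβ1 and PDGF-BB were added. Growth factors, medium and time therefore changed together, and their parts cannot be told apart. The comparison asks which genes and functions were gained and lost across the transcriptome by d6.

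TGFβ1 signals through SMAD2 and SMAD3, which pair with SMAD4 and act on genes of the extracellular matrix, of the contractile apparatus and of cell cycle arrest. PDGF-BB binds PDGF receptors and is known as a mitogen of SMCs. Contractile SMC genes are largely driven by SRF with its cofactor myocardin, and mature SMCs of the vessel wall divide rarely. Undifferentiated rMAPCs carry factors of the early embryo, among them those of the primitive endoderm, the layer that lays down basement membrane and gives rise to the parietal and visceral endoderm of the yolk sac.

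Levels are log2 intensities of 1 probe after quantile normalization, changes are d6 minus d0 on that scale with the standard error (SE) of the fit, and folds are their antilogs. A change was called at an adjusted p under 0.05 in limma, with d0 and d6 of a replicate compared on the same slide. The study's supplement calls the replicates biological, and neither it nor the labels say how the cultures were kept apart, so p-values measure the spread between these arrays, and 3 arrays a day limit the precision. Log2 values of dim probes are the least certain. Normexp background correction was run with an offset of 50 added to the intensities, so all values after it reflect both steps together. After it, 80 of the 229 named changes that were called were more than 1.5 times smaller on the log2 scale. Of these, 80 had a mean level under 7 on 1 of the days. Folds given without a normexp value can shrink likewise where the level on 1 day was that low. Each slide of the 2 clones held d0, d2, d4 and d6 at the positions 1, 2, 3 and 4 in that order, so day and position cannot be told apart. The share of gene features well above background was 52.7%, 55.9% and 56.6% on the d0 arrays and 54.1%, 61.4% and 58.7% on the d6 arrays, and no feature was saturated. The median SD over the 3 arrays was 0.168 on d0 and 0.299 on d6. A probe with arrays of 1 day not well above background has its fold or change given as a bound. For the bound, values of the dim day that lay under the lowest signal well above background on their array were raised to that signal, and the mean of the bright day was set against the mean of these. Bounds apply to quantile-normalized intensities of all replicates without the normexp offset. Changes after normexp correction, in the deposited table or without a replicate can be smaller than the bound. In bulk RNA, fewer cells of a type and less RNA per cell cannot be told apart.

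Of 22914 probes tested, 5666 were higher on d6, or 24.7%, and 8385 were lower, or 36.6%. With 1 probe for each of 11382 genes, 3190 genes rose, or 28.0%, 3996 fell, or 35.1%, and the median change was −0.15. The split depended on the scaling. Of the called probes 40.3% were higher after quantile normalization and 55.4% in the deposited log2 values, where the median change of all genes tested was 0.08 in place of −0.15. It was −0.24 after scaling to the 75th percentile, and changes near these medians carry no direction of their own. Without replicate 2 the calls numbered 4466 higher and 5533 lower, the latter over 1.5 times fewer. At a size of at least 3 log2 units 1360 probes rose and 638 fell, and at a size of at least 5 there were 489 and 162. Changes in these counts had no floor, so the size for probes dim on 1 day rests partly on values at background. On 1084 probes the signal was well above background on all 3 d6 arrays and on no d0 array, and the reverse held for 360 probes. All d6 arrays lay above all d0 arrays for 5346 of the 5666 higher probes. They lay below for 7674 of the 8385 lower probes. Arrays without overlap are thus usual for a called probe and add no support to a named gene. Among the 2721 genes with several tested probes, 27 had probes called in opposite directions. The 229 named genes that were called had an adjusted p of 0.0463 at most.

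The labels were checked against marker genes. Pou5f1, the gene of Oct4, had levels of 10.31, 10.31 and 10.22 on d0 and 0.53, 2.00 and 0.85 on d6. All d0 arrays and 1 of 3 d6 arrays were above background, a fall of at least 283-fold (adjusted p = 1.4e-04). Of 9 markers of rMAPCs and primitive endoderm, 8 were above background on every d0 array, and 7 were called lower on d6. The endodermal factors Gata4, Gata6, Sox17 and Sox7 fell 5.71-fold, 9.91-fold, 17.4-fold and 5.30-fold, and the receptor gene Pdgfra fell 3.80-fold. Foxa2, another endodermal factor, was called higher by 0.66 ± 0.16. The call was lost after scaling to the 75th percentile (0.27), with no filter on dim probes, without replicate 1 (0.64) and without replicate 3 (0.52).

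Of 8 SMC markers 7 had a named probe, and 5 were called higher on d6. Tagln, which encodes the actin-binding protein SM22α, had levels of 9.39, 9.19 and 9.35 on d0 and 15.93, 15.98 and 15.64 on d6. Cnn1, calponin of SMCs, was at 8.06, 7.62 and 7.82 on d0 and 11.55, 11.14 and 11.48 on d6. In both genes the days were far apart, and the changes were 6.54 ± 0.16 and 3.56 ± 0.13 (adjusted p = 1.1e-04 and 1.5e-04). Smtn, encoding smoothelin, rose 5.22-fold and the intermediate filament gene Des rose 11.5-fold. Lmod1, whose protein nucleates actin filaments in SMCs, was above background on no d0 array and on all 3 d6 arrays. Its rise was at least 6.18-fold, with a change of 0.65 in log2 units after normexp correction. Actg2, enteric smooth muscle actin, had levels of 4.78, 4.37 and 4.21 on d0 and 4.53, 5.53 and 4.22 on d6 and did not pass the test (change 0.30, adjusted p = 0.433), and without replicate 2 its change was −0.12. Mylk, myosin light chain kinase, was above background on 0 of 3 d0 and 1 of 3 d6 arrays and on both primary SMC arrays. Myh11, encoding the smooth muscle myosin heavy chain, had no probe with a name.

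Markers of other cell types were mixed. The epithelial markers Cdh1, Epcam, Krt8 and Krt18 were above background on all 6 arrays and were called higher, Cdh1 by 3.28 ± 0.14 and Krt18 by 0.52 ± 0.13. The call of Krt18 was lost after scaling to the 75th percentile (0.22) and without replicate 1, 2 or 3 (0.54, 0.54 and 0.48), and the mean change over its 2 probes was 1.09. Foxj1, Dnai1 and Tekt1 of ciliated epithelium rose, while Spag6 was above background on no array. Of 5 endothelial markers 4 were called lower. Tek fell at least 16.4-fold and Pecam1 by at least 3.59 log2 units, with 0 and 2 d6 arrays above background. After normexp correction their changes were −0.88 and −0.82. Vwf fell 2.32-fold, a call that was lost in the fit over 26 arrays, and by 0.79 in the deposited table and 0.63 after normexp correction. Cdh5, with 2 of 3 d6 arrays above background, was called lower by at least 0.57. Its unfloored change of −0.63 was not called under 10 of 15 alternatives, among them the deposited table (−0.14) and the fits without replicate 1 (−0.66) or 2 (−0.53). Kdr was above background on 1 array of each day. Of blood cell markers, Ptprc and Itgam, which define leukocytes and macrophages, were above background on 1 and 0 d6 arrays. Cd68, a macrophage marker, did not pass the test (change −0.27, adjusted p = 0.246). The changes of Laptm5 (1.40) and Csf1r (1.03) were called, and Tyrobp, with 2 of 3 d6 arrays above background, was called lower by at least 0.54. Laptm5 lost its call in Student's t-test, and Csf1r there and in the fits over 12, 11 and 26 arrays. Tyrobp lost its call under 11 of 15 alternatives, and its unfloored change was −0.64, with −0.40, −0.74 and −0.78 without replicate 1, 2 or 3 and −0.16 in the deposited table.

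The neuronal markers Snap25, Syt1 and Elavl3 were above background on no d0 array, with only 1 d6 array above it for Syt1. Stmn2 fell 6.68-fold and Gfap was above background on 2 d6 arrays. In striated muscle, Myod1 and Ckm were above background on no array, Tnni3 did not pass the test (change −0.49, adjusted p = 0.135), and Tnnt2, cardiac troponin T, rose 8.09-fold. The atrial myosin gene Myh6 was called lower by 0.78, a call that was lost under 9 of 16 alternatives. Its change was −0.52 without replicate 1, −0.75 without replicate 3 and −0.38 in the deposited table. Myh7 was above background on 2 arrays of each day. The trophoblast factor Cdx2 rose at least 3.06-fold, with a change of 0.25 in log2 units after normexp correction. Elf5 was above background on no array, and Tpbpa on 2 d0 arrays and no d6 array. Prl3d1 did not pass the test (change −0.61, adjusted p = 0.0775), though it was called lower without replicate 3 (−0.90) and in the fits over 12 and 11 arrays. Col2a1, the collagen of cartilage, rose at least 120-fold. Adipoq and Plin1 of fat cells were above background on no array and Bglap of bone did not pass the test (change −0.16, adjusted p = 0.460).

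The 12 largest rises among probes measured on all 6 arrays included secreted proteins. Lefty2, which encodes a secreted inhibitor of Nodal and TGFβ family signaling and whose probe lies at chr13:96626239-96626298 of the rat assembly rn4, had levels of 3.65, 2.88 and 3.67 on d0 and 15.63, 15.39 and 16.48 on d6. Chia, a secreted chitinase, was at 3.12, 3.09 and 4.06 on d0 and 15.43, 15.71 and 14.52 on d6. Krt7, a keratin of simple epithelia, had levels of 4.52, 4.63 and 5.12 on d0 and 15.45, 16.01 and 15.59 on d6. For these 3 genes every d6 array was brighter than every d0 array, and the changes were 12.43 ± 0.20, 11.80 ± 0.46 and 10.93 ± 0.21 (adjusted p = 1.0e-04, 1.7e-04 and 1.0e-04), folds of 5532, 3556 and 1946. After normexp correction the changes were 9.57, 8.85 and 8.96. Cdkn2b, the CDK inhibitor p15 and a known target of TGFβ, was at 3.51, 3.16 and 3.85 on d0 and 13.59, 13.73 and 13.09 on d6. Nptx2, a secreted pentraxin of synapses, had levels of 4.64, 4.33 and 4.94 on d0 and 14.24, 13.77 and 14.66 on d6. Wnt5b, a ligand of noncanonical Wnt signaling, was at 2.80, 2.42 and 3.38 on d0 and 11.74, 12.52 and 11.13 on d6. These 3 again separated the days fully, with rises of 998-fold, 770-fold and 488-fold. After normexp correction they were 7.29, 7.66 and 5.71 in log2 units, and the mean change over the probes of Wnt5b was 7.94. Foxj1, the master factor of motile cilia, had levels of 4.79, 4.54 and 4.74 on d0 and 13.99, 13.55 and 13.01 on d6. Spon2, a secreted matrix protein of the spondin family, was at 4.26, 4.31 and 4.85 on d0 and 13.02, 13.19 and 13.40 on d6. Car2, a cytosolic carbonic anhydrase, had levels of 4.67, 4.36 and 4.60 on d0 and 13.43, 13.36 and 12.78 on d6. None of their d0 and d6 arrays overlapped, and the rises were 454-fold, 426-fold and 401-fold, or 6.96, 6.62 and 6.70 in log2 units after normexp correction. Completing the list, Depp1 rose 653-fold, Mrap2, an accessory protein of melanocortin receptors, 444-fold and Bpifa1, a secreted protein of airway epithelium, 408-fold, with changes of 6.41, 5.64 and 5.69 after normexp correction.

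The 12 largest falls held matrix proteins, a morphogen and transcripts known from blood cells. Ribc2, a protein of ciliary microtubules, had levels of 15.55, 15.04 and 14.62 on d0 and 5.80, 8.06 and 7.19 on d6. Upp1, uridine phosphorylase, was at 14.54, 14.65 and 14.68 on d0 and 6.60, 7.97 and 7.47 on d6. Htra1, a secreted serine protease, had levels of 15.65, 15.69 and 15.78 on d0 and 8.17, 8.88 and 9.47 on d6. All d6 arrays lay below all d0 arrays for the 3 genes, which fell 266-fold, 155-fold and 116-fold (adjusted p = 6.8e-04, 1.6e-04 and 1.6e-04). Lama1, the laminin α1 chain of the earliest basement membranes, was at 15.73, 15.22 and 15.29 on d0 and 7.80, 8.50 and 9.59 on d6. Mfap5, a protein of elastic microfibrils, had levels of 15.12, 15.29 and 15.39 on d0 and 8.10, 9.21 and 8.70 on d6. Ihh, the morphogen Indian hedgehog, was at 12.62, 12.71 and 12.60 on d0 and 5.90, 5.89 and 5.72 on d6. These falls were 110-fold, 96.7-fold and 112-fold, and the 3 d6 arrays of Ihh lay closest together. Cd52, a surface glycoprotein of leukocytes, had levels of 12.35, 12.81 and 12.52 on d0 and 4.66, 4.89 and 6.50 on d6. Pyy, a gut hormone, was at 10.74, 11.02 and 10.88 on d0 and 2.63, 3.99 and 4.62 on d6. Myh3, the embryonic myosin heavy chain of skeletal muscle, had levels of 12.36, 12.22 and 12.28 on d0 and 3.80, 5.28 and 6.01 on d6. The days did not overlap in any of them, and they fell 148-fold, 141-fold and 153-fold. Cd7 and Cd6, surface proteins of T cells, fell 113-fold and 96.0-fold, and Igsf1, a membrane glycoprotein known from the pituitary, fell 102-fold. After normexp correction the changes were −7.32, −6.62 and −6.58 for Ribc2, Upp1 and Htra1, −6.51, −6.28 and −5.46 for Lama1, Mfap5 and Ihh, −5.50, −4.45 and −5.59 for Cd52, Pyy and Myh3, and −3.17, −5.03 and −4.50 for Cd7, Cd6 and Igsf1. The mean change over the 2 probes of Cd7 was −5.80.

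**Figure D1:**
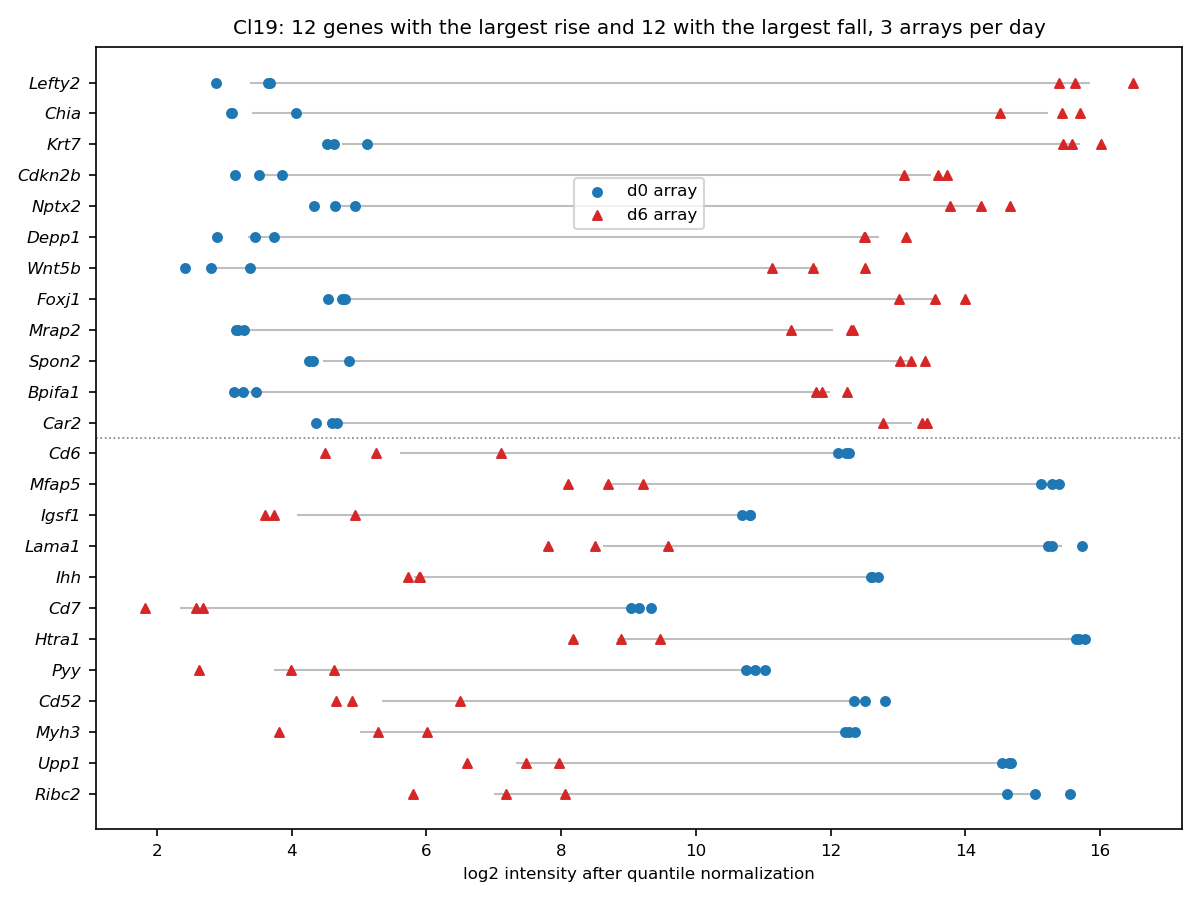
Log2 intensity after quantile normalization (x axis) of the 12 genes with the largest rise (above the dotted line) and the 12 with the largest fall (below it) among probes well above background on all 6 arrays. Circles are the 3 d0 arrays, triangles the 3 d6 arrays and the grey line joins their means. In all 24 genes the circles and the triangles do not overlap, which holds for most called probes. The genes were chosen for large changes of the same direction in all 3 pairs.

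Gene lists for 51 functions, cell types and pathways were described by their counts and median, to be read against 28.0% of genes higher, 35.1% lower and a median change of −0.15 over all genes tested. A list median is followed by that of another background treatment or scaling where the 2 differed by more than 0.1 log2 units and by over 1.5 times or in sign, and the floor sets dim values to the lowest signal well above background. Most tested genes of the cell cycle fell. Of 65 tested genes of the cell cycle and mitosis 57 fell and 1 rose, with a median change of −1.62. The latter was the cyclin gene Ccnd2, named after its values were seen, which rose at least 2.54-fold with 1 of 3 d0 arrays above background, a call that was lost with no filter on dim probes. The mean level of the list was 10.24, 10.31 and 10.29 on the d0 arrays and 8.54, 8.14 and 9.43 on the d6 arrays, so replicate 3 fell least. Ccnd1, the cyclin that drives entry into S phase, had levels of 11.37, 11.46 and 11.83 on d0 and 7.12, 8.61 and 8.11 on d6. Mybl2, a factor of the complex that switches on mitotic genes, was at 12.41, 12.47 and 12.31 on d0 and 9.58, 8.65 and 9.82 on d6. Incenp, a scaffold of the chromosomal passenger complex, had levels of 12.98, 13.00 and 12.95 on d0 and 9.78, 9.52 and 11.40 on d6. The d6 arrays lay below the d0 arrays in each, and the changes were −3.61 ± 0.30, −3.05 ± 0.29 and −2.74 ± 0.42 (adjusted p = 9.7e-04, 0.00142 and 0.00540). Pbk, a mitotic kinase, fell 7.63-fold. E2f7, a repressor of E2F targets that is itself made in S phase, had a signal above background on d0 alone, a fall of at least 2.48-fold.

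Among genes of DNA replication and nucleotide supply, 47 of 58 fell (median −1.17). Rrm2, the regulated subunit of ribonucleotide reductase, had levels of 12.61, 12.64 and 12.72 on d0 and 7.60, 7.33 and 9.92 on d6. Dut, which keeps uracil out of DNA, was at 13.42, 13.48 and 13.46 on d0 and 9.75, 9.75 and 11.61 on d6. Replicate 3 was the brightest of the d6 arrays in both genes, yet below all d0 arrays, and the falls were 20.8-fold and 8.49-fold. Of 37 genes of DNA repair 25 fell (median −0.95, or −0.47 after normexp correction), among them the exonuclease Exo1 with 5.85-fold and Bard1, the partner of BRCA1, with 4.86-fold. The 2 that rose, Neil1 and Xrcc1, act in base excision repair and gained 2.90-fold and 1.85-fold, the latter a change of 0.55 in place of 0.89 after scaling to the 75th percentile.

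Inhibitors of the cell cycle rose more often than they fell. Of 31 tested CDK inhibitors and growth arrest genes 17 rose and 3 fell (median 1.02, or 0.62 at the 75th percentile). Beside Cdkn2b, its neighbor Cdkn2a, the locus of p16 and p19, had levels of 8.34, 8.63 and 8.98 on d0 and 13.67, 14.24 and 13.78 on d6. It rose by 5.25 ± 0.20 with no overlap (adjusted p = 1.7e-04). Sesn3, a stress-induced inhibitor of mTORC1, rose 11.5-fold, and Btg2, an antiproliferative gene of the p53 response, 8.94-fold. Cdkn2c, p18, fell 8.56-fold. Cdkn1c, p57, fell by 1.54 and Rbl2, p130, by 0.60. The call of Cdkn1c was lost with no filter on dim probes, without replicate 1 (−1.68), in the 12-array fit and in Student's t-test. That of Rbl2 was lost in the deposited table (−0.33), with no filter and without replicate 1, 2 or 3 (−0.62, −0.76 and −0.42), and the mean change over its 2 probes was −0.12.

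Of 61 tested genes of ribosome biogenesis 52 fell, with a median of −1.06. Lyar, a nucleolar factor, had levels of 12.96, 13.03 and 13.03 on d0 and 10.88, 10.78 and 11.52 on d6. Polr1b, a core subunit of RNA polymerase I, was at 11.27, 11.11 and 11.24 on d0 and 9.53, 8.94 and 9.78 on d6. Both groups of arrays were separate, with changes of −1.94 ± 0.19 and −1.79 ± 0.18 (adjusted p = 0.00161 and 0.00179). Nle1, which acts in maturation of the large subunit, fell 3.44-fold. Of tRNA synthetases and translation factors 15 of 40 fell and 2 rose (median −0.39, or −0.66 at the 75th percentile). After scaling to the 75th percentile 26 fell, against 4525 of all 11382 genes. The 2 that rose were Eef2k, the kinase that slows elongation, with levels of 8.15, 7.92 and 8.36 on d0 and 13.49, 13.83 and 12.87 on d6, and Qars1, the enzyme that charges tRNA with glutamine. Their rises were 38.0-fold and 1.80-fold, the latter a change of 0.51 in place of 0.85 after scaling to the 75th percentile, while the scaffold Eef1e1 fell 2.70-fold.

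In serine, one-carbon and purine synthesis 25 of 40 genes fell and 3 rose (median −0.98, or −0.65 after normexp correction). Prps1, which makes the ribose donor of purine synthesis, fell 5.95-fold, Impdh1, of guanine nucleotide synthesis, 5.07-fold and Srm, spermidine synthase, 4.98-fold. Adss2, of AMP synthesis, rose by 1.14 ± 0.12, and Cbs, of the route from homocysteine to cysteine, at least 2.28-fold. The call of Cbs was lost after normexp correction (0.17), in the fit over 26 arrays and in Student's t-test. RNA splicing factors fell in 30 of 44 cases (median −0.66). The 1 that rose was Srsf9, by 0.62 ± 0.14, a call that was lost after scaling to the 75th percentile (0.30) and without replicate 1 or 3 (0.59 and 0.56).

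Promoters of these genes were searched for textbook motifs in RefSeq windows of the assembly GRCr8, 250 bases before to 50 bases after the start, on both strands, for 27457 genes. A screen of 12 motifs over the 51 lists came first, motifs and lists were paired after their shares were seen and base composition was not matched, so the shares are a selected description and a match is neither a bound site nor a cause. The E-box CACGTG, known as a site of MYC and its relatives, was in 34.9% of 63 ribosome biogenesis promoters and 7.08% of all promoters, and in 31.0% of 42 of the tRNA synthetase and translation factor list. The E2F motif, TTTGGCGC or TTTCCCGC, was in 40.4% of 52 DNA replication promoters and 1.62% of all. In the cell cycle and mitosis list that share was 4.69%. There the cell cycle homology region TTTGAA, bound by the complex that holds MYBL2, was in 60.9% of 64 promoters against 19.4% of all, and CCAAT, the motif of NF-Y that is also part of the ER stress element below, in 71.9% against 39.6%. CCAAT was also in 77.4% of 31 promoters of cholesterol and fatty acid synthesis, and TTTGAA in 9.62% of the DNA replication promoters. Windows of 60 bases are shown for the genes with the largest called change that hold the motif before the start, with each match in capitals, so that the letters around it can be read. Dtl, Kif23, Spc25 and the genes shown further on, Hsp90b1, Ifi44, Klf6 and Cnn2, were chosen in this way after their values were seen. Lyar and Nle1 show the E-box, Dtl, a factor that licenses destruction at replication forks, and Uhrf1, which reads hemimethylated DNA, the E2F motif, and Kif23, a kinesin of cytokinesis, and Spc25, of the kinetochore, the cell cycle homology region. Dtl fell at least 5.81-fold, with 2 of 3 d6 arrays above background, Uhrf1 4.95-fold, Kif23 5.16-fold and Spc25 4.72-fold. In the assembly GRCr8 the windows lie at chr14:76802823-76802882 (minus strand) for Lyar, chr10:68340181-68340240 (minus strand) for Nle1, chr13:105685932-105685991 (minus strand) for Dtl, chr9:1222967-1223026 (plus strand) for Uhrf1, chr8:71320631-71320690 (minus strand) for Kif23 and chr3:74396743-74396802 (minus strand) for Spc25.
Lyar: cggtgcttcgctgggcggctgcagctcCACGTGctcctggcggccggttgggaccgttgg
Nle1: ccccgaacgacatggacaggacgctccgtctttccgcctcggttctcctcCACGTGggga
Dtl: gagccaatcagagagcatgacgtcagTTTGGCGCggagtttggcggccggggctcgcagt
Uhrf1: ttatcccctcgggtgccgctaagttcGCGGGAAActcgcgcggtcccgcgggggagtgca
Kif23: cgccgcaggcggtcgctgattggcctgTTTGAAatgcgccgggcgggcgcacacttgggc
Spc25: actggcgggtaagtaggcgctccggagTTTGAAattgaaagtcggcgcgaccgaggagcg

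Of 22 tested smooth muscle contractile genes 15 rose and 4 fell (median 2.45). The mean level of the list was 7.06, 6.76 and 7.01 on d0 and 9.31, 9.24 and 9.21 on d6. Tpm2, β-tropomyosin, had levels of 9.75, 9.58 and 9.94 on d0 and 15.64, 15.90 and 15.15 on d6. Myl9, the regulatory light chain of myosin, was at 11.55, 11.33 and 11.55 on d0 and 15.40, 15.19 and 15.67 on d6. Neither gene had overlapping arrays, and the rises were 56.1-fold and 15.4-fold (adjusted p = 2.0e-04 and 1.4e-04). Fhl1, a LIM protein of muscle, fell 4.00-fold. Hspb6, a small heat shock protein of SMCs, and Aoc3, an amine oxidase of the SMC surface, were called lower by 0.64 and 0.60, but their d0 and d6 arrays overlapped and the calls were lost under 6 of 16 and 10 of 16 alternatives. Hspb6 was at −0.56 and −0.63 without replicate 2 or 3 and −0.15 in the deposited table. Aoc3 was at −0.51, −0.65 and −0.63 without replicate 1, 2 or 3 and −0.09 in the deposited table. Among 42 genes of the actin cytoskeleton and focal adhesions 33 rose (median 1.14). Vil1, villin of the microvillus core, had levels of 4.26, 4.74 and 4.67 on d0 and 12.47, 12.07 and 13.01 on d6. It rose 249-fold with all d6 arrays above all d0 arrays, while the filament-severing Gsn rose 9.40-fold and Pdlim5, of stress fibers, by 3.34 ± 0.14. Cfl2, muscle cofilin, was the 1 member that fell, by 2.35-fold.

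Immediate early genes of the SRF and AP-1 type rose in 14 of 21 cases and fell in 4 (median 1.25, or 0.83 after normexp correction). Dusp1, a phosphatase of MAP kinases, had levels of 8.63, 8.15 and 8.20 on d0 and 13.88, 13.76 and 12.86 on d6. Fosl1, a Fos family member, was at 5.39, 4.59 and 4.93 on d0 and 8.24, 8.69 and 7.38 on d6. Their arrays did not overlap, with rises of 36.0-fold and 8.79-fold. Nr4a1, an orphan nuclear receptor, and Klf2, a zinc finger factor, fell 2.47-fold and 2.26-fold. The CArG box, the site of SRF, was in 26.3% of 19 promoters of this list, 8.33% of 36 of the actin list and 4.76% of 21 of the contractile list, against 1.77% of all promoters. In the contractile list the 1 promoter with the box belongs to a gene that was called lower. It is shown in capitals for Klf6, a zinc finger factor that rose 4.12-fold, and Cnn2, the calponin of nonmuscle cells, which rose 4.18-fold. Their windows lie at chr17:69458645-69458704 (minus strand) and chr7:10370349-10370408 (minus strand).
Klf6: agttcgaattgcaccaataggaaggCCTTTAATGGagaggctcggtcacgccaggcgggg
Cnn2: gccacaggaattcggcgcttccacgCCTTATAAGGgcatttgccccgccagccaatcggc

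Collagens and their processing enzymes rose in 11 and fell in 12 of 29 cases (median 0.18, or 0.06 after normexp correction and 0.57 in the deposited table). Col1a1, the α1 chain of type I collagen, had levels of 6.06, 5.81 and 6.12 on d0 and 13.00, 13.75 and 13.04 on d6. Loxl1, which crosslinks elastin, was at 4.94, 4.67 and 4.90 on d0 and 10.36, 12.28 and 10.82 on d6. Both separated the days, and the rises were 154-fold and 79.9-fold (adjusted p = 1.4e-04 and 6.8e-04). The mean change over the 3 probes of Col1a1 was 8.35. Col5a1 rose by 3.61 ± 0.18. Col4a1, a chain of type IV collagen, had levels of 16.68, 16.74 and 16.80 on d0 and 13.84, 14.45 and 14.74 on d6. It fell 5.27-fold and its neighbor Col4a2 5.74-fold. P3h2, which hydroxylates type IV collagen, was at 10.02, 10.37 and 10.22 on d0 and 3.50, 5.76 and 4.18 on d6 and fell 52.9-fold.

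Laminins and integrins also went both ways. Of 27 members 16 rose and 7 fell (median 1.03, or 0.59 after normexp correction). While Lama1 fell, Lama5, the laminin α5 chain of mature basement membranes, had levels of 7.84, 7.11 and 7.58 on d0 and 14.49, 15.00 and 15.36 on d6. It rose by 7.44 ± 0.29, with all d6 arrays above all d0 arrays (adjusted p = 1.7e-04). Itgb4, the integrin of hemidesmosomes, was at 7.51, 6.98 and 7.14 on d0 and 12.21, 13.70 and 12.67 on d6. Itga7, a laminin receptor of muscle, had levels of 12.56, 12.39 and 12.59 on d0 and 8.19, 8.52 and 8.76 on d6. The former rose 50.1-fold and the latter fell 16.2-fold. Lamc1, the γ1 chain shared by most laminins, fell 7.36-fold.

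Matricellular proteins and proteoglycans rose in 19 and fell in 8 of 29 cases (median 1.96, or 0.98 after normexp correction). Fn1, fibronectin, had levels of 8.22, 7.71 and 8.23 on d0 and 13.36, 15.30 and 14.33 on d6. Gpc4, a glypican that binds growth factors, was at 7.39, 7.20 and 7.06 on d0 and 14.44, 13.82 and 14.69 on d6. They rose 77.5-fold and 137-fold without overlap. Fbln1, fibulin 1, fell 16.1-fold and Sdc1, syndecan 1, by 2.56. Proteases of the matrix and their inhibitors rose in 17 of 27 cases and fell in 7 (median 1.53). Both activators of plasminogen rose. Plat, the tissue type, had levels of 3.70, 4.07 and 4.10 on d0 and 10.81, 10.98 and 10.99 on d6 and rose 126-fold. Plau, the urokinase type, was above background on no d0 array and at 8.65, 9.58 and 9.72 on d6, at least 123-fold higher. The membrane protease Mmp14 rose by 4.56 ± 0.19. Timp1, an inhibitor of metalloproteases, fell 4.58-fold.

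Of 41 tested keratin, desmosome and other epithelial genes 36 rose and 1 fell (median 2.81, or 1.38 after normexp correction). The mean level of the list was 7.07, 6.90 and 7.06 on the d0 arrays and 10.05, 10.09 and 9.86 on the d6 arrays. Tmprss2, a membrane serine protease of epithelia, had levels of 4.51, 4.52 and 4.85 on d0 and 13.32, 12.48 and 13.37 on d6. Rab25, a GTPase of apical recycling, was at 3.76, 2.97 and 3.20 on d0 and 11.12, 11.33 and 10.56 on d6. Cdh1, E-cadherin, had levels of 10.24, 10.39 and 10.26 on d0 and 13.31, 13.71 and 13.71 on d6. Each d6 array exceeded each d0 array, and the rises were 345-fold, 207-fold and 9.71-fold (adjusted p = 1.2e-04, 1.3e-04 and 2.1e-04). Epcam rose 7.32-fold and Krt8 7.72-fold. Klf5, a factor of proliferating epithelium and of SMCs, was the member that fell, by 2.96-fold. On the 2 primary SMC arrays Cdh1, Epcam, Tmprss2 and Rab25 were not above background, while Krt8 and Krt18 were above it on both. Whether epithelial and contractile genes rose in the same cells was not tested.

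Tight junction and polarity genes rose in 23 and fell in 5 of 33 cases (median 1.19, or 0.71 after normexp correction), while 1 fell in the deposited table. Cldn4 had levels of 8.03, 7.45 and 7.58 on d0 and 14.67, 14.68 and 14.18 on d6. Cldn7 was at 8.75, 8.25 and 9.10 on d0 and 14.66, 14.26 and 14.31 on d6. Cldn3 had levels of 4.02, 4.12 and 4.37 on d0 and 10.46, 10.60 and 9.48 on d6. The 3 claudins, which seal the space between epithelial cells, rose 113-fold, 52.3-fold and 64.3-fold with no overlapping arrays. Mesenchymal genes had no common direction, with 7 higher and 6 lower of 16 (median 0.23, or 0.61 in the deposited table). The transcription factor Twist1 rose 3.47-fold and Mmp2, a gelatinase, by 3.70 ± 0.17, or 1.68 as the mean over its 2 probes. Zeb1, a repressor of Cdh1, had levels of 5.94, 5.82 and 6.05 on d0 and 3.03, 3.02 and 2.96 on d6 and fell 7.63-fold. Snai1, which also represses Cdh1, fell 2.84-fold. Vim, vimentin, was called lower by 1.45, a call that was lost with no filter on dim probes, without replicate 1 or 3 (−1.01 and −1.46) and in Student's t-test.

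Of 32 tested members of the TGFβ pathway and its known targets 17 rose and 5 fell (median 1.03, or 0.55 after normexp correction). Nodal, the ligand that Lefty2 inhibits, had levels of 5.19, 4.89 and 5.41 on d0 and 11.14, 10.53 and 11.22 on d6. Tgfb1 itself was at 4.06, 4.00 and 4.27 on d0 and 9.67, 9.99 and 9.82 on d6. Pmepa1, a feedback inhibitor of SMAD signaling, had levels of 6.31, 6.07 and 6.40 on d0 and 11.61, 11.95 and 11.87 on d6. The days did not overlap, and the rises were 55.8-fold, 52.5-fold and 46.9-fold (adjusted p = 1.1e-04, 1.2e-04 and 1.2e-04). Smad6, an inhibitor of BMP signaling, fell 2.61-fold. The BMP list rose in 9 and fell in 4 of 19 cases (median 0.34, or 0.01 after normexp correction, 0.53 at the 75th percentile and 0.85 in the deposited table). The ligand Bmp2 had levels of 5.90, 6.45 and 5.94 on d0 and 12.44, 12.34 and 11.81 on d6. Bmp4 was at 3.31, 3.02 and 2.84 on d0 and 8.57, 8.95 and 8.46 on d6. Id4, an inhibitor of basic helix-loop-helix factors, had levels of 11.83, 11.83 and 11.89 on d0 and 6.95, 6.89 and 6.39 on d6. Both ligands rose, 68.7-fold and 48.6-fold, and Id4 fell 34.5-fold. The mean change over the 2 probes of Bmp2 was 5.39.

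Wnt pathway genes rose in 21 and fell in 7 of 37 cases (median 1.34, or 0.50 after normexp correction). Besides Wnt5b, Sfrp5, a secreted Wnt antagonist, had levels of 7.64, 7.87 and 8.01 on d0 and 14.25, 13.20 and 14.96 on d6 and rose 78.5-fold. Ror2, a receptor of Wnt5 ligands, was at 8.77, 8.63 and 8.68 on d0 and 5.20, 4.74 and 5.17 on d6 and fell 12.6-fold. The receptors Fzd5 and Fzd2 rose by 4.77 and 4.47. In the Notch pathway 9 of 18 genes rose and 4 fell (median 0.32, or 0.12 after normexp correction and 0.66 in the deposited table). Jag1, a Notch ligand, was above background on no d0 array and was at 7.02, 8.33 and 6.80 on d6, at least 32.1-fold higher, and the receptor Notch4 rose by 2.96 ± 0.43.

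The FGF, EGF and PDGF list rose in 24 and fell in 8 of 37 cases (median 1.86, or 0.57 after normexp correction). The ligand Fgf8 had levels of 5.38, 5.38 and 5.92 on d0 and 11.78, 10.59 and 12.80 on d6. Dusp6, a phosphatase that FGF and ERK signaling switch on, was at 6.10, 6.71 and 6.48 on d0 and 9.72, 11.41 and 10.43 on d6. They rose by 6.16 ± 0.35 and 4.09 ± 0.25, and their arrays did not overlap. Nrg1, neuregulin 1, had a mean level of 11.56 on d0 and 5.22 on d6. Fgfr4, an FGF receptor, was at 9.74, 9.48 and 9.64 on d0 and 4.14, 3.47 and 5.06 on d6. Both fell, 81.0-fold and 42.2-fold, again with no overlap (adjusted p = 1.0e-04 and 3.7e-04). The EGF receptor ligands Hbegf and Areg rose by 3.55 and 3.44. Of 10 Hedgehog genes 2 rose and 5 fell (median −0.44, or −0.08 after normexp correction, −0.26 at the 75th percentile and 0.07 in the deposited table). The ligand gene Ihh, given among the largest falls, was one of the latter.

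Factors of the early embryo fell and rose. Of 23 tested pluripotency and early embryo factors 16 fell and 6 rose (median −1.35, or −0.75 after normexp correction). Tbx3, a T-box factor of stem cells and endoderm, had levels of 12.74, 12.26 and 12.17 on d0 and 7.88, 8.36 and 8.04 on d6 and fell 19.7-fold. Otx2, a homeobox factor of the epiblast, anterior endoderm and brain, was at 6.83, 6.75 and 6.75 on d0 and 14.41, 14.02 and 14.92 on d6. Sox2, a factor of the epiblast and of the foregut and neural tube, was above background on no d0 array and at 8.44, 7.28 and 6.56 on d6. The rise of Otx2 was 7.67 ± 0.21 (adjusted p = 1.2e-04), and that of Sox2 was at least 30.6-fold. Factors of the primitive endoderm and mesendoderm rose in 14 and fell in 11 of 28 cases (median 0.59, or 0.27 at the 75th percentile). Gsc, a homeobox factor of the organizer, had levels of 6.08, 5.45 and 5.95 on d0 and 13.55, 12.94 and 14.03 on d6. Mixl1, a factor of the primitive streak, was above background on no d0 array and at 9.08, 8.60 and 9.36 on d6. Gsc rose 205-fold with no overlap and Mixl1 at least 99.4-fold. Against these gains stood the falls of Gata4, Gata6, Sox17 and Sox7.

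Secreted proteins of the visceral endoderm and liver rose in 15 and fell in 6 of 29 cases (median 1.46, or 0.28 after normexp correction). Apob, the scaffold of lipoproteins, was above background on no d0 array and at 12.76, 12.96 and 14.11 on d6. It was at least 1908-fold higher by its brightest probe. The mean unfloored change over its 3 probes was 8.99, which is not a bound and rests on d0 values at background. Ttr, transthyretin, had levels of 3.46, 3.21 and 3.62 on d0 and 9.72, 8.95 and 12.11 on d6. Apoa1, apolipoprotein A-I, had a mean level of 3.39 on d0 and 9.46 on d6. Ttr rose 114-fold and Apoa1 67.4-fold, and the d6 arrays of Ttr were spread over more than 3 log2 units. Cubn, the endocytic receptor of visceral endoderm and kidney, had levels of 13.57, 13.37 and 13.44 on d0 and 7.90, 8.09 and 9.61 on d6 and fell 30.4-fold. Trophoblast-type genes rose in 7 of 12 cases and fell in 3 (median 1.34, or 0.28 after normexp correction). Gata3, a factor of trophectoderm, rose at least 6.11-fold from below background, and Plac8 by 2.76 ± 0.14, while Plac1, a placental surface protein, fell by 2.58.

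Cardiac and striated muscle genes rose in 19 and fell in 7 of 29 cases (median 1.32, or 0.43 after normexp correction), and the mean level of the list went from 5.72, 5.61 and 5.75 to 7.56, 7.75 and 7.38. Actc1, cardiac actin, had levels of 7.85, 7.64 and 7.89 on d0 and 14.23, 14.16 and 13.36 on d6. Myl7, the atrial regulatory light chain, was at 3.06, 2.46 and 3.08 on d0 and 9.28, 8.94 and 10.11 on d6. Both were higher on every d6 array, by 70.0-fold and 95.3-fold (adjusted p = 1.9e-04 and 1.2e-04). Nkx2-5, a cardiac homeobox factor, and Nppa, atrial natriuretic peptide, were above background on no d0 array. On d6 they were at 7.68, 6.84 and 7.95 and at 10.19, 10.84 and 9.62, at least 34.6-fold and 229-fold higher. None of Actc1, Myl7 and Nppa was above background on both primary SMC arrays, while Tnnt2 and Tnni3 were. The part of heart-type cells in these values was not tested.

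Endothelial markers rose in 5 and fell in 9 of 21 cases (median −0.36, or −0.07 after normexp correction, −0.22 at the 75th percentile and 0.11 in the deposited table), and their mean level was 5.34, 5.24 and 5.53 on d0 and 5.06, 5.01 and 5.03 on d6. Nos3, endothelial nitric oxide synthase, rose at least 35.7-fold from below background, and Apln, apelin, fell 16.9-fold. Blood cell markers fell in 7 and rose in 4 of 13 cases (median −0.64, or −0.13 after normexp correction and −0.16 in the deposited table). Gata1, the master factor of red cells, had levels of 8.74, 8.64 and 8.76 on d0 and 3.76, 3.27 and 3.41 on d6. Alas2, which starts heme synthesis in red cells, was at 6.75, 6.87 and 6.82 on d0 and 3.25, 2.40 and 3.66 on d6. Runx1, a factor of blood stem cells, rose by 2.31 ± 0.15. The former pair fell 37.6-fold and 13.1-fold, each without overlap.

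Neuronal and glial markers rose in 14 and fell in 6 of 21 cases (median 2.07, or 0.30 after normexp correction). Sox10, a factor of neural crest and glia, had levels of 4.41, 4.05 and 3.53 on d0 and 10.19, 12.13 and 10.18 on d6 and rose 115-fold. The mean level of the list was 4.68, 4.48 and 4.62 on d0 and 6.10, 6.21 and 6.13 on d6, while Snap25 and Elavl3 stayed below background. Rbfox3, a splicing factor of neurons, had a signal above background on d0 alone, a fall of at least 14.4-fold. Markers of fat, cartilage and bone rose in 6 and fell in 2 of 12 cases (median 0.77, or 0.45 after normexp correction and 1.20 in the deposited table). Dlx5, a factor of bone and limb, rose from below background by at least 9.99-fold.

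Of 18 tested genes of motile cilia 13 rose and 1 fell (median 1.33, or 0.40 after normexp correction), while 8 genes of the list were above background on no array. Dnai1, a dynein intermediate chain of the outer arm, was above background on no d0 array and was at 6.59, 5.44 and 6.85 on d6. Lrrc23, a radial spoke protein, was at 7.06, 6.80 and 7.55 on d6, also from below background. The rises were at least 15.1-fold and 27.0-fold. Rsph9, another radial spoke protein, rose 6.64-fold and Tekt1, a tektin, 2.52-fold. Mns1, a filament protein of the axoneme, was the member that fell, by 2.70-fold, and Ribc2, outside the list, fell as given among the largest falls. The X-box, the site of RFX factors, was in 21.2% of 33 promoters of the list and 1.52% of all. Genes of the primary cilium and of intraflagellar transport were higher in 9 and lower in 7 of 30 cases (median 0.23, or 0.65 in the deposited table), and in 17 and 4 in the deposited table, where 3768 of all genes tested were higher and 3070 lower.

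**Figure D2:**
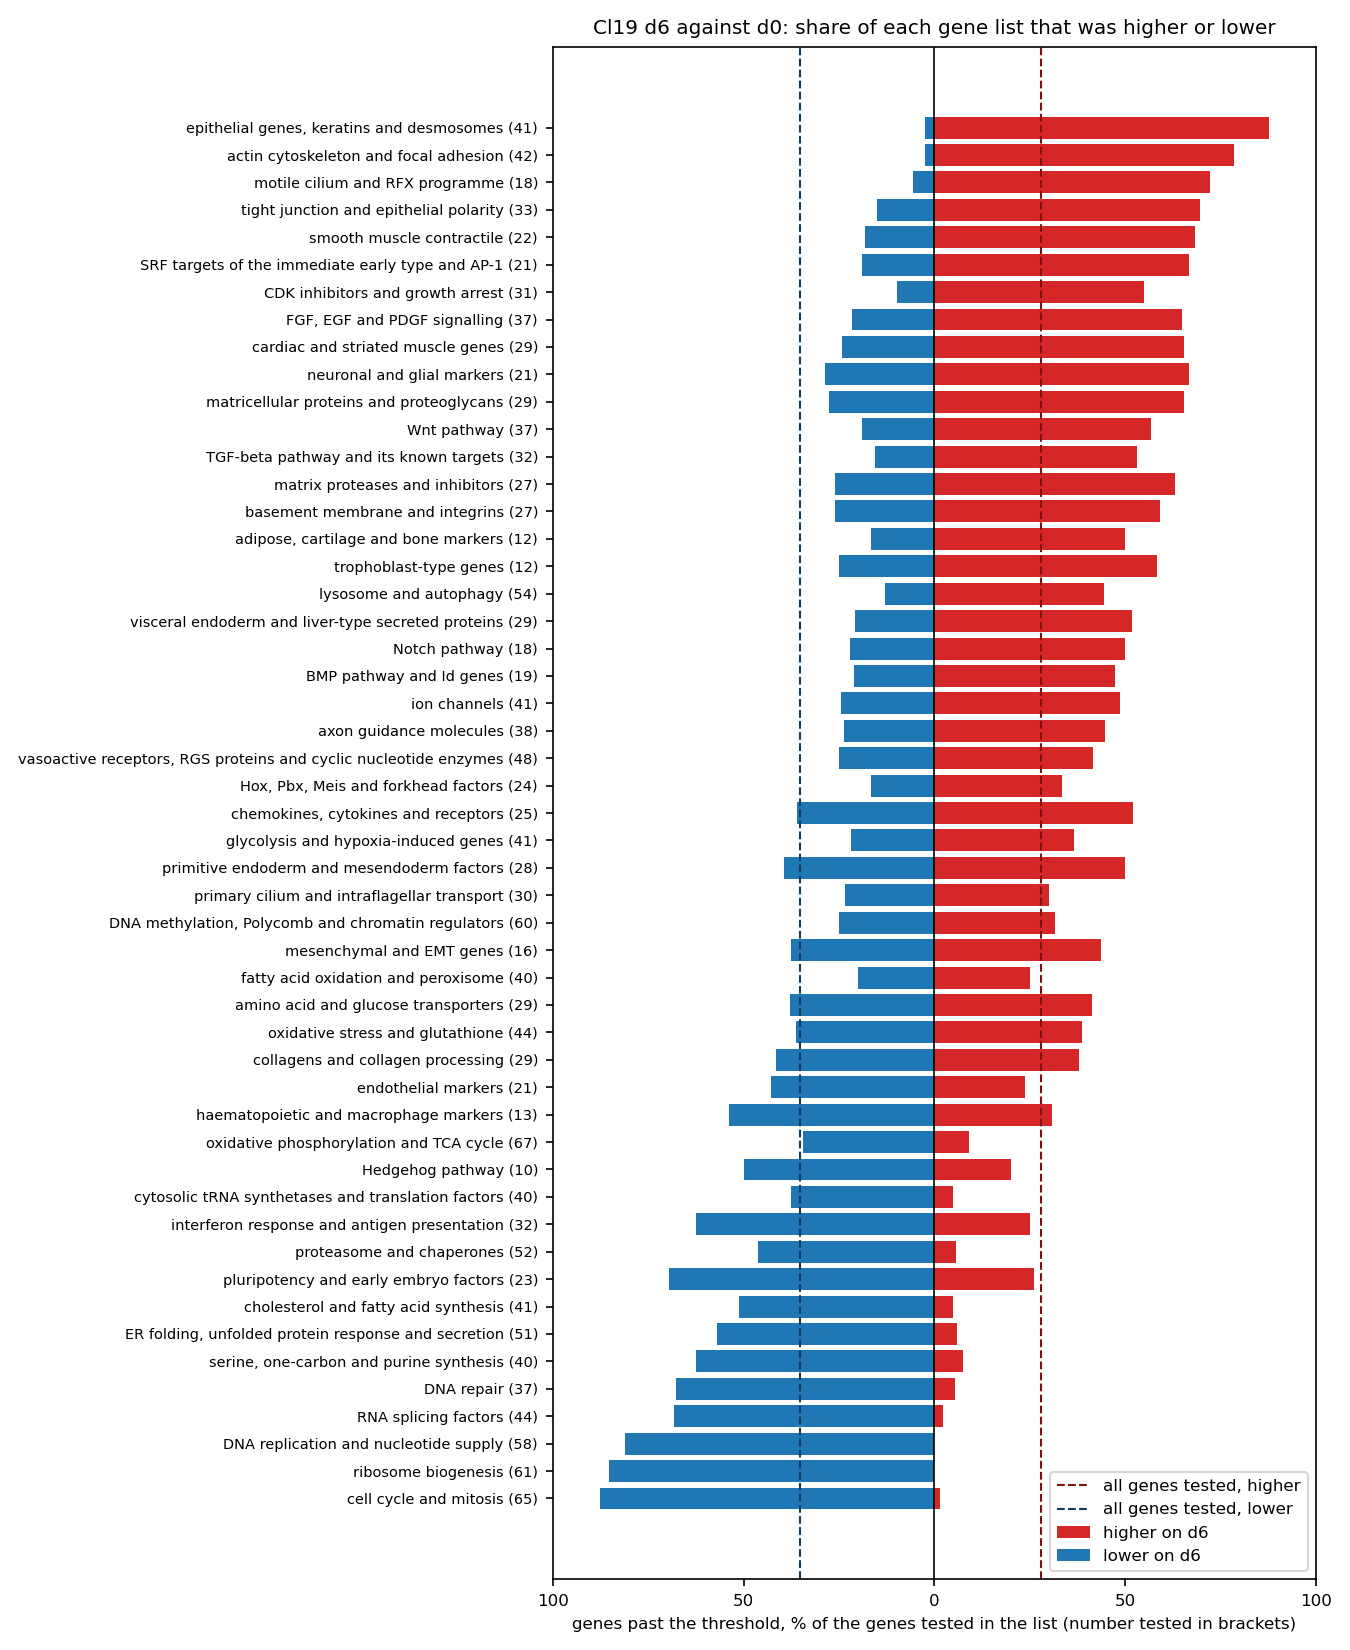
Share of the tested genes of each of 51 lists that were higher (red, to the right) or lower (blue, to the left) on d6, in percent, with the number tested in brackets. Dashed lines mark the shares over all genes tested, 28.0% higher and 35.1% lower; the epithelial and actin lists lie at the top and the replication, ribosome biogenesis and cell cycle lists at the bottom. The shares and their order are those after quantile normalization, and under the deposited table the shares over all genes shift towards higher.

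Of 52 proteasome and chaperone genes 24 fell and 3 rose (median −0.41, or −0.71 at the 75th percentile). After scaling to the 75th percentile 40 fell, against 4525 of all 11382 genes. The 3 that rose are inducible chaperones and a cofactor. Hspa1a, heat-inducible HSP70, had levels of 7.25, 6.72 and 7.02 on d0 and 10.83, 11.18 and 10.91 on d6. Hspb1, HSP27, was at 8.53, 8.54 and 8.89 on d0 and 11.84, 13.17 and 12.39 on d6. Bag3, a cochaperone of the actin-linked autophagy route, had levels of 11.75, 11.79 and 11.77 on d0 and 14.05, 13.85 and 14.28 on d6. They rose 15.8-fold, 14.1-fold and 4.91-fold, all without overlap. Hspd1 and Hspe1, the mitochondrial chaperonin pair, fell 2.60-fold and 2.63-fold.

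Of 51 genes of folding and stress in the endoplasmic reticulum (ER) 29 fell and 3 rose (median −0.62). The mean level of the list was 11.45, 11.49 and 11.49 on d0 and 11.22, 10.82 and 10.70 on d6, so replicate 1 fell least. Ero1a, the oxidase that drives disulfide formation, had levels of 12.98, 13.18 and 13.15 on d0 and 9.56, 9.58 and 8.14 on d6. Creb3l1, a factor cleaved from the ER membrane that drives collagen secretion, was at 11.49, 11.18 and 11.47 on d0 and 8.29, 7.33 and 7.57 on d6. Their arrays were separate, with falls of 16.2-fold and 12.5-fold. Ppp1r15a, which restarts translation after stress, rose 4.17-fold, Dnajb9, a cochaperone, 2.19-fold and Pdia5, a disulfide isomerase, 2.17-fold. The ER stress element, CCAAT followed after 9 bases by CCACG, was in 16.7% of 42 promoters of the list and in 0.0765% of all. It is shown in capitals, read on the opposite strand, for Hsp90b1, the ER chaperone GRP94, in the window at chr7:23012327-23012386 (minus strand). Hsp90b1 fell 2.73-fold, a call that was lost with no filter on dim probes.
Hsp90b1: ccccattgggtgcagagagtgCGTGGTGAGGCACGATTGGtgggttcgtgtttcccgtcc

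Glycolysis and hypoxia-induced genes rose in 15 and fell in 9 of 41 cases (median 0.21, or −0.06 at the 75th percentile). After scaling to the 75th percentile 13 rose and 13 fell, against 2961 and 4525 of all 11382 genes. Adm, the vasodilator peptide adrenomedullin, had levels of 9.03, 8.79 and 8.89 on d0 and 14.44, 15.29 and 14.76 on d6. Eno2, an enolase, was at 6.38, 6.11 and 6.37 on d0 and 11.32, 12.10 and 9.54 on d6. Epas1, the hypoxia-inducible factor HIF-2α, had levels of 9.39, 9.60 and 9.72 on d0 and 3.79, 3.92 and 4.39 on d6. The first rose by 5.92 ± 0.24 and the second by 4.70 ± 0.56, and Epas1 fell 46.4-fold, with no overlap in any of them (adjusted p = 1.9e-04, 0.00264 and 1.2e-04). Ldhb, a lactate dehydrogenase subunit, fell 3.06-fold. Oxidative phosphorylation and the TCA cycle were lower in 23 and higher in 6 of 67 cases (median −0.22, or −0.52 at the 75th percentile). These shares were 34.3% lower and 8.96% higher, against 35.1% and 28.0% of all genes. After scaling to the 75th percentile 40 were lower and 1 higher, against 4525 and 2961 of all 11382 genes. Atp5mc1, a subunit of the ATP synthase ring, fell 2.64-fold and Suclg2, of the TCA cycle, 2.50-fold.

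Fatty acid oxidation and peroxisome genes rose in 10 and fell in 8 of 40 cases (median −0.05, or −0.16 at the 75th percentile and 0.16 in the deposited table). Acot1, a thioesterase of fatty acids, rose 10.9-fold and Hadh, of mitochondrial β-oxidation, fell 6.55-fold. Cholesterol and fatty acid synthesis fell in 21 of 41 cases and rose in 2 (median −0.69). The mean level of that list was 10.27, 10.35 and 10.41 on d0 and 9.26, 9.45 and 10.34 on d6, so that replicate 3 stayed near d0. Stard4, a carrier of cholesterol, had levels of 9.91, 9.89 and 10.20 on d0 and 6.50, 6.47 and 7.43 on d6. Acaca, which commits carbon to fatty acid synthesis, was at 13.19, 13.13 and 13.40 on d0 and 10.03, 10.01 and 11.19 on d6. Both fell with separate arrays, 9.21-fold and 7.12-fold. The members that rose were the elongases Elovl7, at least 29.3-fold from below background, and Elovl1, by 0.64 ± 0.13. The mean unfloored change over the 2 probes of Elovl7 was 4.27, which is not a bound. The call of Elovl1 was lost after scaling to the 75th percentile (0.29) and without replicate 1 or 3 (0.64 and 0.59).

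Lysosome and autophagy genes rose in 24 and fell in 7 of 54 cases (median 0.44, or 0.17 at the 75th percentile). Ulk1, the kinase that starts autophagy, had levels of 4.95, 4.68 and 4.84 on d0 and 8.31, 8.12 and 8.64 on d6 and rose 11.5-fold. Ctsf, a cathepsin, rose 6.76-fold, while Tfeb, a master factor of lysosomal genes, was at 9.46, 9.40 and 9.78 on d0 and 7.42, 6.92 and 7.49 on d6 and fell 4.82-fold. Oxidative stress and glutathione genes were even, with 17 higher and 16 lower of 44 (median −0.10, or −0.21 at the 75th percentile and 0.12 in the deposited table). Gsta2, a glutathione transferase of liver, had levels of 12.84, 13.37 and 13.14 on d0 and 9.40, 8.39 and 9.25 on d6. Gclc, which makes the rate-limiting step of glutathione synthesis, was at 7.16, 8.21 and 6.64 on d0 and 3.77, 4.30 and 3.76 on d6. Mt1, metallothionein 1, had levels of 9.35, 9.43 and 9.63 on d0 and 12.46, 12.81 and 12.66 on d6. The former pair fell 17.2-fold and 10.5-fold, and Mt1 rose 9.02-fold.

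Interferon response and antigen presentation genes were lower in 20 and higher in 8 of 32 cases (median −0.85, or −0.40 after normexp correction and −0.51 in the deposited table). Ifitm1, an antiviral membrane protein, had a mean level of 12.54 on d0 and 7.46 on d6. Psmb8, a catalytic subunit of the immunoproteasome, was at 8.10, 7.85 and 8.29 on d0 and 4.63, 4.50 and 4.70 on d6. Gbp2, a guanylate-binding protein, had levels of 5.97, 6.07 and 5.97 on d0 and 12.34, 11.70 and 11.39 on d6. The former pair fell 33.9-fold and 11.1-fold while Gbp2 rose 56.2-fold, all without overlap (adjusted p = 2.2e-04, 1.7e-04 and 1.7e-04). Psmb9, the companion of Psmb8, fell 5.89-fold, and Socs3, a brake on cytokine signaling, 20.2-fold. The interferon element GAAANNGAA was in 57.1% of 35 promoters of the list and 10.3% of all. It was in 5 of 6 promoters of genes that rose and 10 of 15 of genes that fell. In the window of Ifi44, at chr2:243303841-243303900 (minus strand), it is shown in capitals on the opposite strand. Ifi44 fell at least 15.3-fold, with 1 of 3 d6 arrays above background.
Ifi44: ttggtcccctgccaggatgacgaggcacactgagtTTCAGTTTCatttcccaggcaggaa

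Chemokines, cytokines and their receptors rose in 13 and fell in 9 of 25 cases (median 1.49, or 0.58 with the floor and 0.23 after normexp correction), and 7 were above background on d6 alone. Cxcl2, a chemokine for neutrophils, was above background on no d0 array and at 4.77, 8.09 and 6.74 on d6, at least 17.8-fold higher. Cx3cl1, a membrane-bound chemokine, rose 9.94-fold. Il33, an alarmin of the IL-1 family, had levels of 9.15, 9.36 and 9.24 on d0 and 5.31, 4.65 and 6.10 on d6 and fell 14.9-fold. Axon guidance molecules rose in 17 and fell in 9 of 38 cases (median 0.44, or 0.20 after normexp correction and 0.89 in the deposited table). Slit2, a repellent ligand of ROBO receptors, was at 3.38, 3.68 and 3.40 on d0 and 11.02, 11.19 and 10.99 on d6 and rose 191-fold.

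Of 41 ion channel and aquaporin genes 20 rose and 10 fell (median 0.61, or 0.30 with the floor, 0.18 after normexp correction and 0.98 in the deposited table). Scnn1a, the α subunit of the epithelial sodium channel, had levels of 5.79, 5.46 and 5.71 on d0 and 10.43, 10.01 and 10.60 on d6 and rose 25.9-fold. Aqp8, a water channel, was at 11.50, 12.03 and 11.85 on d0 and 5.30, 5.87 and 7.19 on d6 and fell 51.0-fold. Transporters of amino acids and glucose were even, 12 higher and 11 lower of 29 (median −0.19, or 0.08 in the deposited table). Slc6a6, the taurine transporter, rose 19.6-fold, and Slc1a3, a glutamate transporter, fell 17.5-fold.

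Vasoactive receptors, RGS proteins and cyclic nucleotide enzymes rose in 20 and fell in 12 of 48 cases (median 0.06, or 0.30 in the deposited table). Edn1, the vasoconstrictor endothelin 1, was above background on no d0 array and at 7.18, 8.39 and 6.51 on d6. Its receptor gene Ednra, expressed by SMCs, was at 8.89, 9.37 and 9.47 on d0 and 5.60, 4.70 and 6.52 on d6. Edn1 rose at least 31.6-fold and Ednra fell 12.5-fold. Prkar2b, a regulatory subunit of protein kinase A, had levels of 9.62, 9.49 and 9.63 on d0 and 3.76, 3.79 and 3.60 on d6 and fell 58.4-fold, and Pde4d, which degrades cyclic AMP, fell 16.5-fold.

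Chromatin regulators rose in 19 and fell in 15 of 60 cases (median 0.18, or −0.05 at the 75th percentile). After scaling to the 75th percentile 17 rose and 19 fell, against 2961 and 4525 of all 11382 genes. Cbx7, a Polycomb reader known to repress the Cdkn2a locus, had levels of 3.65, 4.24 and 3.18 on d0 and 8.83, 9.01 and 8.44 on d6 and rose 33.6-fold. Dnmt3a, a DNA methyltransferase, fell 3.15-fold. Hox, Pbx, Meis and forkhead factors rose in 8 and fell in 4 of 24 cases (median 0.23, or 0.56 in the deposited table), and 13 were above background on none of the 6 arrays. Foxf1, a forkhead factor of splanchnic mesoderm, rose 11.2-fold, while Meis2, a partner of Hox proteins, fell 10.4-fold.

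Levels on d2 and d4 placed these changes in time for genes drawn over the course. They share the d0 arrays with the comparison above and were not tested here. The array labelled d2 replicate 1 stood apart from the other d2 arrays, with a Lefty2 level of 7.55 beside 14.01 and 13.87, so d2 means are given with and without it. Lefty2 was at 11.81 on d2, or 13.94 without that array, and at 14.40 on d4. Krt7 was at 10.50, or 12.75, and then at 14.35. Cdkn2b was at 8.54, or 10.17, and then at 12.41. In replicate 1 Krt7 was at 6.00 and Cdkn2b at 5.29 on d2. Col1a1 was at 7.52 on d2, or 8.24, and at 11.87 on d4. Chia was at 4.96, or 6.07, and then at 12.61. Among the genes that fell, Lama1 was at 13.60 on d2, or 12.97, and at 11.67 on d4. Epas1 was at 8.01, or 7.46, and then at 6.09. Ccnd1 was at 9.56, or 9.45, and at 7.60 on d4, and Rrm2 at 11.13, or 10.98, and at 9.12. The d4 mean of Ccnd1 lay below that of d6, while Rrm2, Lama1 and Epas1 were still above theirs.

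**Figure D3:**
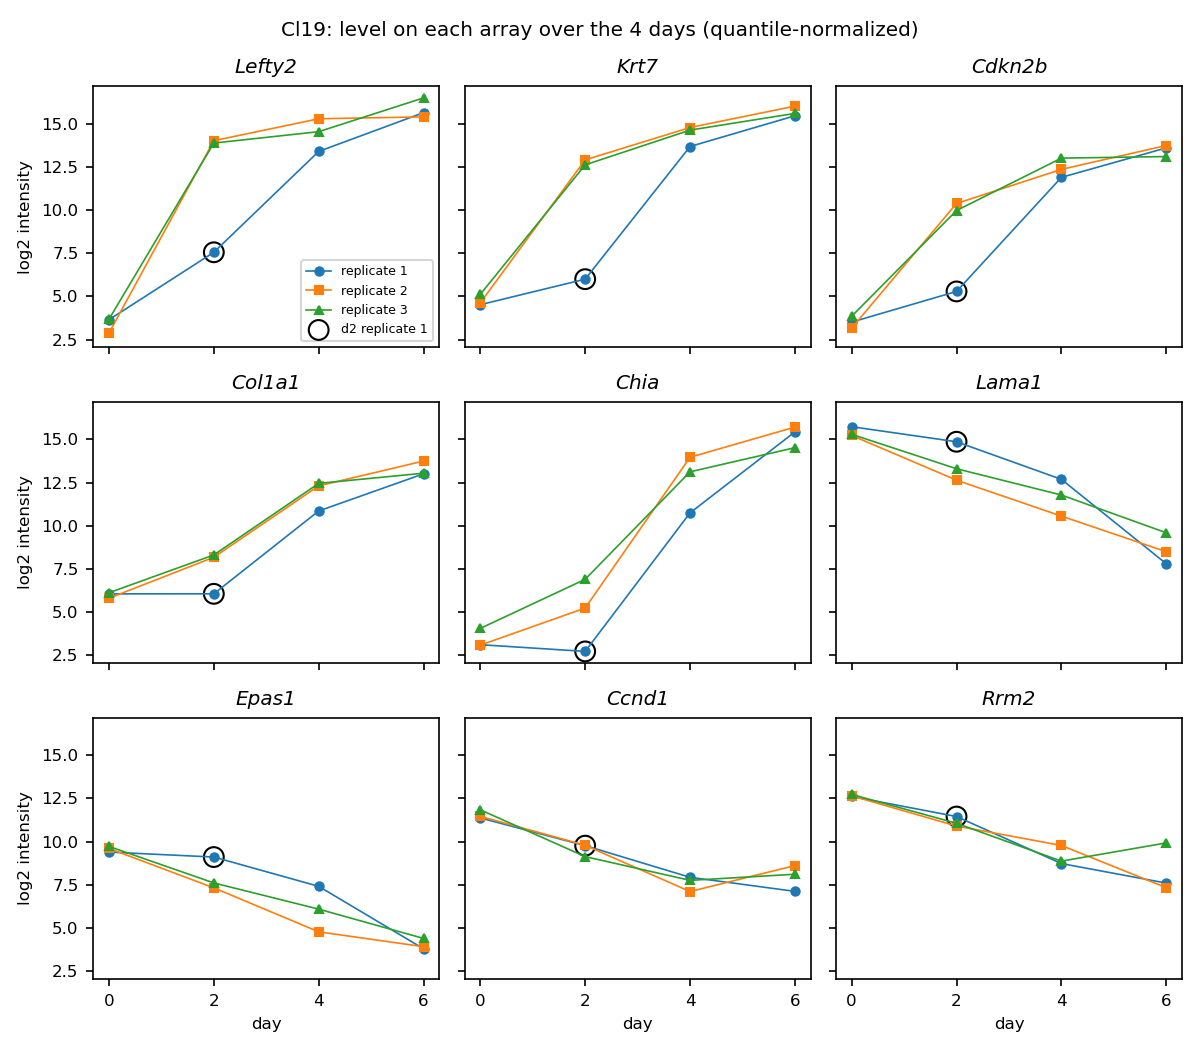
Log2 intensity after quantile normalization (y axis) of 9 genes on d0, d2, d4 and d6 (x axis, days) on each Cl19 array. Lines join the arrays of a replicate (same slide) and a ring marks d2 replicate 1; Lefty2, Krt7, Cdkn2b, Col1a1 and Chia end higher than they began and Lama1, Epas1, Ccnd1 and Rrm2 lower.

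The change from d0 to d6 was compared with that of the clone 3c3, grown with the same factors, by an interaction test over 12 arrays. The clones lay on separate slides and differed in scan, so clone, slides and scan cannot be told apart. Of 23103 probes tested, 20.8% differed, with 2272 changes higher and 2542 lower in Cl19, and 631 of them were called in opposite directions in the 2 clones. The call count rested on each replicate: it was 3044 without replicate 1, 1942 without replicate 2 and 2306 without replicate 3, against 4814 with all. Without 3c3 replicate 3, whose slide had fewer features above background, it was 3351. Psmb8 fell by 3.47 in Cl19 and rose by 2.66 in 3c3, a difference of −6.13 ± 0.29 (adjusted p = 1.8e-04). Aqp8 fell by 5.67 and rose by 2.97 (difference −8.64 ± 0.56, adjusted p = 3.4e-04). Ccnd1 fell by 3.61, with a change of 0.87 in 3c3 (difference −4.48 ± 0.56, adjusted p = 0.00275). Lama1 fell by 6.78 against a change of −0.97 in 3c3 (difference −5.81 ± 0.58, adjusted p = 0.00140).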

How the data were processed

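RNA of each sample was labelled and hybridized to a 4x44K whole rat genome array, 1 sample per array. Intensities are the processed signals of the deposited array files, which the authors' Agilent Feature Extraction software had made by subtracting background and detrending each array, with no scaling between arrays. The log2 values deposited in the series table equal the binary logarithm of these intensities on every array, so they too had no scaling between arrays as deposited by the authors. The background flags per the file headers came from the same software.

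Intensities were put on a log2 scale and quantile-normalized over 26 arrays. Features flagged as outliers on an array were then left out and repeated probes were averaged. Probes well above background on all 3 arrays of d0 or of d6 entered the limma fit (limma 3.58.1, R 4.3.3), with replicate (slide) as a block and p-values adjusted by Benjamini and Hochberg. The fit had 2 residual and 2.60 prior degrees of freedom. Tables were made with Python 3.11.15. The slide is the same for all days of a replicate per the file headers. Residuals of d0 and d6 correlated with 0.115, 0.478 and 0.326 within replicates 1, 2 and 3, and with 0.139 between d0 of replicate 1 and d6 of replicate 3. Difference between the clones was tested over 12 arrays with slide as a block.

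Probes were named through accession, gene number, symbol or synonym in RefSeq annotation of GRCr8, and promoters are RefSeq windows of that assembly. A gene is given by its brightest tested probe, except that the 12 largest rises and falls are given by the probe with the largest change. Members and lists were chosen with earlier results of these data known. Genes named are the 12 largest rises and falls among probes measured on all 6 arrays, up to 4 risen and 4 fallen members of a list with those seen on 1 day alone, and defining markers. Exceptions are 8 genes named after their values were seen, as stated where they appear. Alternatives covered scaling, background, filter, floor, block, trend, replicates, arrays in the fit and Student's t-test, which the study's methods give for its assays in general, while its array probes were chosen by an area method. The 11-array fit and the fit without 3c3 replicate 3 were added after the data were seen.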

Additional observations from a re-analysis of the deposited data

Results flagged for a closer look

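The change from d0 to d6 differed between the clones Cl19 and 3c3 for 4814 of 23103 probes in the interaction test. Among named genes, 183 were above background on all 12 arrays of both clones, and only these are given here. Those with a change that differed between the clones are listed. Named genes were chosen largely by their change in Cl19, so neither their number nor their sizes can be set against all probes. Values are the change in Cl19 minus that in 3c3, in log2 units. The d6 array of 3c3 replicate 3 had 43.2% of gene features above background and its d0 array 49.5%, against 56.0% and 53.7% in replicate 1.

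Among genes called lower from d0 to d6 in Cl19, the change was lower than in 3c3 for these, in order of size: Aqp8 −8.64, Htra1 −6.57, Cd52 −6.56, Mfap5 −6.53, Myh3 −6.33, Psmb8 −6.13, Ribc2 −6.12, Pyy −5.93, Gsta2 −5.91, Lama1 −5.81, P3h2 −5.34, Epas1 −5.33, Igsf1 −5.28, Psmb9 −5.08 and Ccnd1 −4.48. They went on with Ror2 −4.02, Slc1a3 −3.92, Ihh −3.62, Gata1 −3.61, Fgfr4 −3.60, Id4 −3.54, Ednra −3.42, Ero1a −3.38, Creb3l1 −3.35, Nrg1 −3.25, Upp1 −3.17, Fbln1 −3.10, Cubn −2.87, Hadh −2.86 and Pde4d −2.80. Then came Gclc −2.65, Tfeb −2.60, Ldhb −2.58, Tbx3 −2.55, Col4a2 −2.43, Cdkn1c −2.32, Cd6 −2.29, Sox17 −2.28, Sdc1 −2.26, Itga7 −2.22, Vwf −2.17, Col4a1 −2.14, Snai1 −2.07, Gata4 −2.03 and Lamc1 −1.91. The smallest were Gata6 −1.84, Mybl2 −1.74, Nr4a1 −1.73, Fhl1 −1.63, Sox7 −1.47, Smad6 −1.45, Socs3 −1.31, Timp1 −1.25, Impdh1 −1.17, Rbl2 −1.15, Hspb6 −1.04, Klf5 −1.01, Lyar −0.94, Stard4 −0.94 and Cfl2 −0.92.

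Among genes called higher in Cl19, the change was higher than in 3c3 for Bpifa1 7.81, Mrap2 7.27, Gsc 5.64, Slit2 5.16, Wnt5b 4.52, Lefty2 4.51, Pmepa1 4.14, Col1a1 3.74, Nptx2 3.52, Eef2k 3.08 and Runx1 3.07. Below these stood Krt7 2.93, Gbp2 2.89, Cldn3 2.84, Notch4 2.83, Foxf1 2.83, Sox10 2.78, Car2 2.76, Cdkn2b 2.72, Otx2 2.67, Fzd5 2.55 and Bmp2 2.44. After them came Twist1 2.42, Foxj1 2.40, Myl9 2.33, Cldn4 2.08, Cbx7 2.06, Sesn3 2.01, Mmp14 1.77, Acot1 1.76, Pdia5 1.67, Adss2 1.64 and Tnnt2 1.61. At the end were Nodal 1.58, Laptm5 1.53, Hbegf 1.48, Ulk1 1.34, Bmp4 1.23, Rsph9 1.16, Cnn2 1.09, Bag3 0.98, Cnn1 0.89, Spon2 0.81 and Epcam 0.71.

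Other genes were called higher in Cl19 with a change that was lower than in 3c3, so the rise was larger in 3c3. These were Csf1r −5.20, Areg −4.33, Hspb1 −1.49, Adm −1.47, Plac8 −1.05 and Col5a1 −1.01.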

How the results depend on the processing

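Of 234 named genes with a test, 229 were called, and 211 of these kept their direction and call under all of the up to 16 alternatives run with a test. Directions reversed only in genes that had not passed. Cd68 was at 0.10 and Bglap at 0.29 in the deposited table. Without 1 replicate, Actg2 ranged from −0.12 to 0.58. The causes were not tested.

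Probes called higher ranged from 4466 to 4900 and probes called lower from 5533 to 6595 without 1 replicate, where fewer arrays were tested. Without the replicate block they numbered 5279 and 7413. The deposited table gave 7123 and 5736, the 75th percentile 5502 and 8755, normexp correction 5277 and 7622, and Student's t-test 4775 and 6519 after adjustment. With no filter, 5164 and 7451 of 41012 probes were called, and with a signal well above background on all 6 arrays 4300 and 7652 of 19603. Probes called different between the clones ranged from 1942 to 3044 without 1 replicate and numbered 3351 without 3c3 replicate 3. Signal over background limits the dim probes, where folds are bounds only if a day had arrays not above background, and 1 clone limits what can be said of others.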
